A study of Mus musculus with 24 samples.

Results

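The genes of interest were 9 that build the coat of the lipid droplet or empty it, the perilipins Plin2, Plin3, Plin4 and Plin5 and the lipolysis genes Pnpla2, Abhd5, G0s2, Lipe and Mgll, measured by bulk RNA-seq of gastrocnemius muscle from mice housed with restricted movement. The 9 were found by symbol among the 52083 genes with a symbol in a raw count table of 55416 genes, and all 9 had enough counts to be among the 16408 genes tested. The set was chosen by name with results of these data known, and Plin4 was put forward because its level was seen lower with small mouse cage (SMC) housing in both sexes, so the SMC contrasts of Plin4 are given as a description without a test. The table held 24 libraries, 6 from each sex and housing, sham or SMC. The labels give the strain as C56BL6J, which the study's methods name as wild-type C57BL/6J, and no allele or agent differed between the groups. SMC mice lived for 8 weeks in an acrylic box that limits movement, sham mice stayed ambulatory, and all were bought at 8 weeks of age and fasted before tissue collection. The labels name the tissue as skeletal muscle and do not tie a library to an animal, so each library was taken as a separate mouse.

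A muscle fibre stores fatty acids as triglyceride in droplets that lie beside its mitochondria. Perilipins coat these droplets and control which lipases reach them. Adipose triglyceride lipase, encoded by Pnpla2, removes the first fatty acid and is switched on by Abhd5 (CGI-58) and held back by G0s2. Hormone-sensitive lipase, encoded by Lipe, acts on diglyceride, and monoglyceride lipase, encoded by Mgll, releases the last fatty acid and glycerol. Slow oxidative fibres are known to hold more of these droplets than fast glycolytic fibres.

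Levels are given as CPM, a read count relative to the library total after TMM scaling. Library totals ran from 23026627 to 36880413 counts. The tissue label was checked against 8 muscle fibre genes, among them Acta1, Ckm and Ttn, whose summed level was 160483 to 421542 CPM in every library. Male sham mouse 4 and female sham mouse 7 stood apart. Myh7, the slow myosin heavy chain, was at 7.99 and 7.02 CPM in these 2 libraries and at 275 CPM or more in the other 22. A slow fibre score, the mean log2 CPM of 10 slow fibre genes, was 1.42 and 1.22 in them and 5.09 to 7.78 elsewhere. Several results that rest on these libraries are also given without them. None of the libraries carries a label for batch or date.

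Compared per kilobase of exon, Plin4 and Pnpla2 were the most abundant of the 9 genes. Plin4 averaged 88.4 ± 35.9 CPM per kb (SD, n = 24) and Pnpla2 62.9 ± 11.95 CPM per kb, and the ranges of both lay above those of the other 7 genes. Mgll followed at 11.9 ± 2.29 CPM per kb, and Plin5, the perilipin that ties droplets to mitochondria, at 9.21 ± 4.24. G0s2, Plin2, Plin3, Lipe and Abhd5 averaged 7.11, 6.52, 5.84, 5.65 and 4.85 CPM per kb. From Mgll downwards each gene lay within the spread of its neighbour. Abhd5 varied least, from 3.94 to 5.64 CPM per kb, while G0s2 ran from 1.12 to 13.4. Of the summed level of the 4 perilipins, Plin4 made up 76.9 ± 8.38% in sham males and 73.5 ± 5.87% in SMC males (SD, n = 6 each), and 84.0 ± 5.32% and 81.5 ± 4.16% in sham and SMC females. Plin4 and Pnpla2 overlapped in range. The length of a gene was the union of its annotated exons, so exons that muscle does not use also count toward it.

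**Figure D1:**
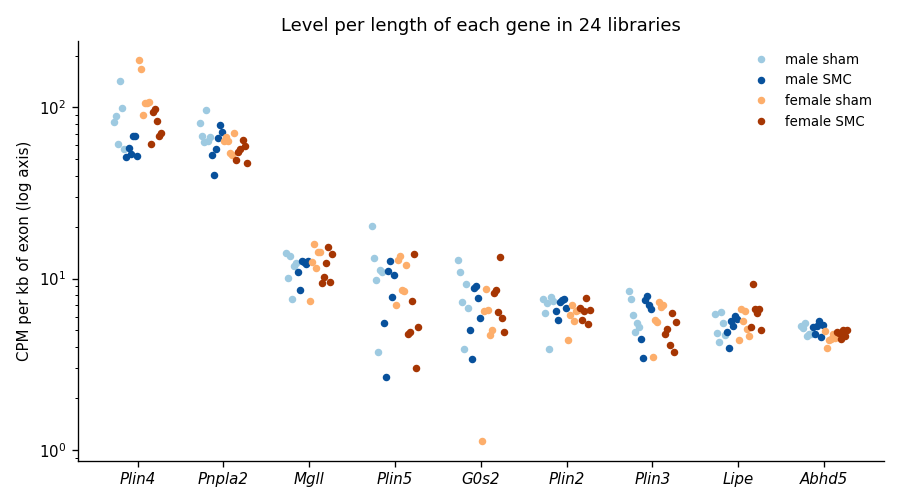
Level of each gene in CPM per kb of exon on a log axis, with 1 point for each of the 24 libraries coloured by group and genes ordered by their mean. Plin4 and Pnpla2 form the upper pair, at 40.1 CPM per kb or more in every library, and the other 7 genes lie at 20.2 or less.

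Plin4 and Plin5 are neighbours on chromosome 17. In the GRCm38 annotation Plin4 (ENSMUSG00000002831) spans positions 56100591 to 56109803 and Plin5 (ENSMUSG00000011305) spans 56111601 to 56117596, both on the minus strand, with 1797 bases between them. Plin3 lies on the same chromosome at 56277476 to 56292873. The counts were made on GRCm39, so these positions describe gene order and are not those of the count table. The 250 bases before 1 RefSeq start of each neighbour are shown because the pair differ in how they track the slow fibre genes, as given further on. Capitals mark letters found by a search of each window, namely TATAA on the sense strand and, on either strand, the nuclear receptor core AGGTCA, the CCAAT box and the GC box GGGCGG. Windows are from GRCm38.p6, minus strand, 5′ to 3′, at chr17:56109783-56110032 for Plin4 and chr17:56117549-56117798 for Plin5.
Plin4: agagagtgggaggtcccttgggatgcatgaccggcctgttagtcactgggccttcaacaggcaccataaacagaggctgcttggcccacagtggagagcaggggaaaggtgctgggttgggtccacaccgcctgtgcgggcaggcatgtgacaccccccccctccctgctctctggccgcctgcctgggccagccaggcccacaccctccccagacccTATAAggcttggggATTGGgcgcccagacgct
Plin5: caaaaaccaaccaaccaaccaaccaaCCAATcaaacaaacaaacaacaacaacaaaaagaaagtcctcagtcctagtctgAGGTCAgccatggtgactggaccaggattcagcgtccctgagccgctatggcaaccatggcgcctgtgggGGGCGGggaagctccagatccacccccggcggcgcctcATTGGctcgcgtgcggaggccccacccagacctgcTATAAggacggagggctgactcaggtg
Both windows hold TATAA shortly before the start, at -32 to -28 in Plin4 and -27 to -23 in Plin5, letters found in 16% of 32851 upstream windows of the same length. Both also hold CCAAT or its complement, which 33.8% of windows do. AGGTCA, the letters of a nuclear receptor core site, was found at -170 to -165 in the Plin5 window shown and not in Plin4, against 14% of all windows. The same core repeated with 1 base between, the usual PPAR element, was in none of the 12 windows found for the 9 members and in 0.0335% of all windows. A match is a run of letters and was not tested as a binding site.

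Plin4, a perilipin of adipocytes and muscle, was lower in SMC than in sham mice of both sexes, which is the pattern it was chosen for. In males, Plin4 was at 329 CPM in the lowest, 493 in the median and 828 in the highest sham mouse, and at 297, 322 and 396 CPM in SMC mice. Of the 6 male SMC mice, 3 lay below every sham mouse, and 4 of 6 sham mice lay above every SMC mouse, so the groups overlapped. In females, Plin4 was at 519, 617 and 1097 CPM in sham and at 354, 445 and 562 CPM in SMC mice, with 4 SMC mice below all sham mice and 5 sham mice above all SMC mice. The log2 fold change was -0.60 ± 0.20 (SE) in males and -0.69 ± 0.20 in females, or 0.66-fold and 0.62-fold. The highest sham values, 828 and 1097 CPM, belonged to male sham mouse 4 and female sham mouse 7, the libraries with scarcely any slow fibre transcript. Without both, the log2 fold change of Plin4 was -0.42 in males and -0.54 in females, and with the score of the slow fibre genes added to the model it was -0.44 and -0.49. The male response minus the female response was 0.093 ± 0.28.

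**Figure D2:**
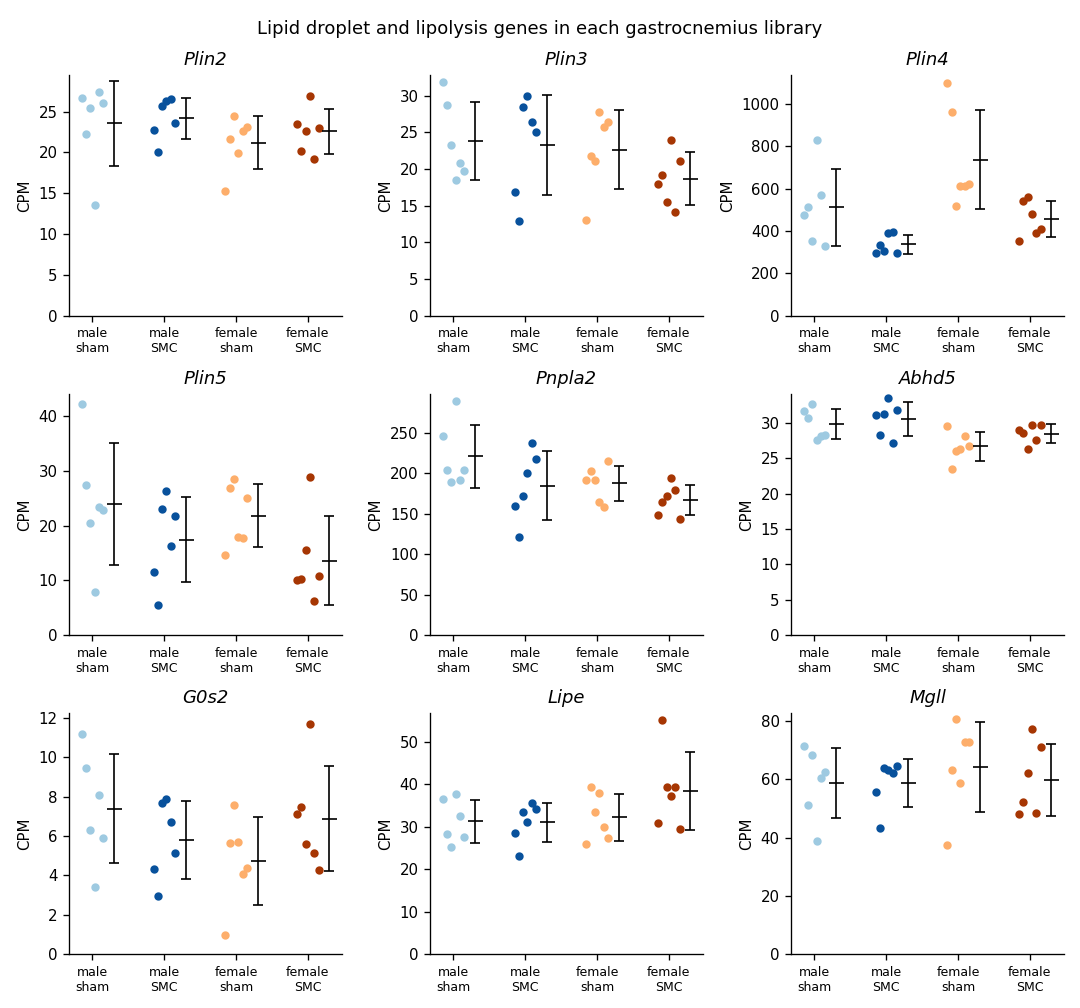
Level in CPM of each gene in the 6 libraries of each group, with the mean and SD beside the points on axes that start at 0. Plin4 runs from 297 to 396 CPM in male SMC and from 354 to 562 CPM in female SMC mice, with the highest sham mice at 828 and 1097 CPM.

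None of the other 8 genes passed the test in either sex. At a false discovery rate (FDR, edgeR quasi-likelihood test with Benjamini-Hochberg adjustment over all genes) of 0.05, 0 of 8 were called in males, where 0.0% of all tested genes were called, and 0 of 8 in females, where 0.341% were. At an unadjusted p under 0.05 there were also 0 of 8 in each sex, against 1805 and 2049 of the 16408 genes. DESeq2 and limma with library weights also called 0 of the 8 in each sex. Of the 16408 genes, DESeq2 called 133 in males and 268 in females, and limma 93 and 16. Averaged over both sexes, 0 of 8 were called beside 2.36% of all genes, and 2 of 8, Plin5 and Pnpla2, had an unadjusted p under 0.05, against 2879 of the 16408 genes. For the 8, the median on the log2 scale was -0.024 in males, -0.0076 in females and 0.0055 in the mean of both, beside -0.0044, -0.011 and -0.0089 over all tested genes.

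Plin5, among the coat proteins, ran from 5.57 to 42.2 CPM over the 24 mice. In males it was at 7.78 CPM in the lowest, 23.1 in the median and 42.2 in the highest sham mouse, and at 5.57, 19.1 and 26.4 CPM in SMC mice. In females it was at 14.6, 21.6 and 28.5 CPM in sham and at 6.26, 10.5 and 29.0 CPM in SMC mice. In females 4 of 6 SMC mice lay below every sham mouse while 1, mouse 22, lay above all of them. The log2 fold change of Plin5 was -0.47 ± 0.36 in males (FDR = 0.696), -0.69 ± 0.36 in females (FDR = 0.451) and -0.58 ± 0.26 in the mean of both (unadjusted p = 0.0331, FDR = 0.232). With the score of the slow fibre genes added to the model, the mean over both sexes was -0.87 with an FDR of 0.0243. In that fit 4.44% of all genes were called. No other setting called any of the 8 tested members for SMC. Without the 2 low slow fibre libraries, both sham mice, Plin5 was at -0.72 with an FDR of 0.0900. For SMC, 7 of 10 slow fibre genes were above 0 in males and 10 of 10 in females, with none called. Their medians were 0.57 and 0.61, beside -0.0044 and -0.011 over all tested genes. The score was therefore not fully separate from housing in the fit that used it.

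Plin2 and Plin3, the perilipins found in most cell types, differed little between housing groups beside the spread of the mice. Plin2 was at 13.6, 25.8 and 27.4 CPM in male sham and 20.1, 24.7 and 26.6 CPM in male SMC mice, and at 15.3, 22.2 and 24.5 CPM in female sham and 19.2, 22.8 and 26.95 CPM in female SMC mice. Its log2 fold change was 0.036 ± 0.13 in males and 0.088 ± 0.13 in females. The groups overlapped in both sexes, and the lowest value in each sex was a sham mouse, number 4 in males and 7 in females. Plin3 was at 18.5, 22.1 and 31.9 CPM in male sham and 12.97, 25.7 and 29.99 CPM in male SMC mice, and at 13.1, 23.7 and 27.8 CPM in female sham and 14.2, 18.6 and 23.96 CPM in female SMC mice. Its log2 fold change was -0.036 ± 0.19 in males (FDR = 0.970) and -0.28 ± 0.20 in females (FDR = 0.599).

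Pnpla2, the first lipase of the pathway, was at 189 CPM in the lowest, 204 in the median and 290 in the highest male sham mouse and at 121, 186 and 237 CPM in male SMC mice. In females it was at 158, 192 and 215 CPM in sham and 144, 169 and 194 CPM in SMC mice. In males 3 and in females 2 of 6 SMC mice lay below every sham mouse. The log2 fold change of Pnpla2 was -0.26 ± 0.13 in males (FDR = 0.491), -0.17 ± 0.13 in females (FDR = 0.672) and -0.21 ± 0.095 in the mean of both (unadjusted p = 0.0347, FDR = 0.237). Without both low slow fibre libraries the male value was -0.17 (FDR = 0.625). Abhd5, the activator of the Pnpla2 lipase, had log2 fold changes of 0.033 ± 0.064 in males and 0.093 ± 0.064 in females. The interval of 2 standard errors for Abhd5 ran from -0.095 to 0.16 in males and from -0.036 to 0.22 in females, the narrowest of the set.

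G0s2, the inhibitor of that lipase, had estimates of opposite sign in the sexes. In males, G0s2 was at 3.39 CPM in the lowest, 7.20 in the median and 11.2 in the highest sham mouse and at 2.94, 5.93 and 7.89 CPM in SMC mice. In females it was at 0.975, 5.02 and 7.58 CPM in sham and at 4.27, 6.35 and 11.7 CPM in SMC mice. The ranges overlapped in both sexes. The log2 fold change of G0s2 was -0.36 ± 0.33 in males (FDR = 0.753) and 0.53 ± 0.33 in females (FDR = 0.557), and the difference between these responses was -0.89 ± 0.47 (unadjusted p = 0.0711, FDR = 0.955). In settings other than leaving out 1 mouse, G0s2 ran from -0.62 to -0.36 in males and from 0.28 to 0.61 in females. None of the 8 genes was called for a difference in response between the sexes, where 0.0% of all tested genes were called and 841 of 16408 had an unadjusted p under 0.05. At an unadjusted p under 0.05 the count was 0 of 8. DESeq2 and limma also called 0 of 8, beside 1 and 0 of all 16408 genes. Of 12 tested adipocyte genes, 10 were below 0 for SMC in males (median -0.21) and 11 were above 0 in females (median 0.57), with none called by edgeR and 0 and 1 at an unadjusted p under 0.05. With the adipocyte score in the model, G0s2 was at -0.40 in males, 0.61 in females and -1.01 for the difference.

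Of the downstream lipases, Lipe was at 25.2, 30.4 and 37.7 CPM in male sham and 23.2, 32.2 and 35.6 CPM in male SMC mice. In females it was at 25.9, 31.6 and 39.3 CPM in sham and 29.4, 38.2 and 55.1 CPM in SMC mice. The log2 fold change of Lipe was -0.012 ± 0.14 in males (FDR = 0.984) and 0.25 ± 0.14 in females (FDR = 0.487). Female SMC mouse 20, at 55.1 CPM, was the one mouse above every female sham mouse, and without it the female value was 0.12. With the adipocyte score in the model it was 0.18 (FDR = 0.559). Mgll was at 38.7, 61.5 and 71.4 CPM in male sham and 43.3, 62.7 and 64.8 CPM in male SMC mice, with a log2 fold change of 0.0012 ± 0.16. In females Mgll was at 37.4, 68.0 and 80.6 CPM in sham and 48.0, 57.2 and 77.3 CPM in SMC mice, with a log2 fold change of -0.10 ± 0.16.

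**Figure D3:**
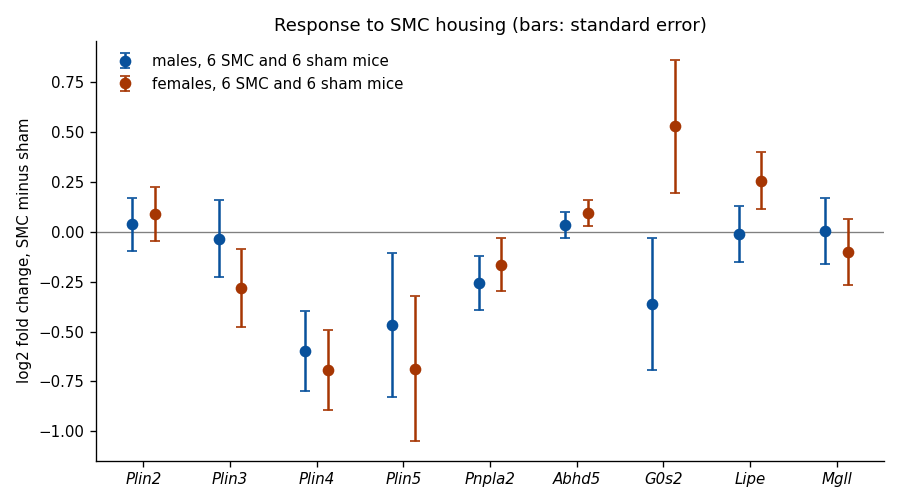
Log2 fold change of each gene, SMC minus sham, in males and in females, with the standard error as bars. Plin4 lies at -0.60 in males and -0.69 in females, Plin5 at -0.47 and -0.69, and G0s2 is the gene farthest apart between the sexes, at -0.36 and 0.53.

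Over all 24 libraries, 5 of the 9 genes rose with the slow fibre transcripts from mouse to mouse. For each tested gene the slope of its log2 level on the slow fibre score was fitted with the 4 group means in the model, a test added after the data were seen. Of the 9 members, 6 were called at an FDR of 0.05, where 24% of all tested genes were called. Plin2, Plin3, Plin5, G0s2 and Mgll rose with the score, by 0.14, 0.16, 0.28, 0.34 and 0.17 log2 units for each unit of score, with SE of 0.017, 0.035, 0.068, 0.058 and 0.021 and FDR of 5.28e-06, 0.00192, 0.00442, 0.000177 and 8.25e-06. Plin4 went the other way, at -0.13 ± 0.035 (FDR = 0.00783). Pnpla2, Lipe and Abhd5 had slopes of -0.019, 0.010 and 0.0031, with FDR of 0.695, 0.861 and 0.911.

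The 2 libraries with little slow fibre RNA weigh heavily in these slopes. In male sham mouse 4, Plin2 was at 13.6, Plin5 at 7.78, G0s2 at 3.39 and Mgll at 38.7 CPM, each the lowest of its group, while Plin4 at 828 and Pnpla2 at 290 CPM were the highest. In female sham mouse 7, Plin2 was at 15.3, Plin3 at 13.1, Plin5 at 14.6, G0s2 at 0.975 and Mgll at 37.4 CPM, again the lowest, with Plin4 at 1097 CPM the highest. Without both libraries, 4 of 9 members were called beside 6.87% of all genes, Plin2 at 0.17, Plin3 at 0.37, Plin5 at 0.72 and Mgll at 0.27 per unit, with FDR of 0.00664, 0.00464, 0.00196 and 0.00128. G0s2 was at 0.40 with an FDR of 0.0707, and Plin4 was at -6.98e-05 with an FDR of 0.9997, so the slope of Plin4 rested on these 2 libraries. Leaving out male sham mouse 4 alone gave Plin4 -0.10 (FDR = 0.142) and Plin5 0.24 (FDR = 0.0531), and leaving out female sham mouse 7 alone gave Plin4 -0.13 (FDR = 0.0644). In bulk RNA, fewer slow fibres and less slow fibre RNA per fibre cannot be told apart. Fast fibre genes also varied with the score over the 24 libraries. Of 10, 2 were called with slopes above 0, up to 0.85, and 8 below 0, where 24% of all tested genes were called. The slopes of the members are thus not particular to slow fibres.

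**Figure D4:**
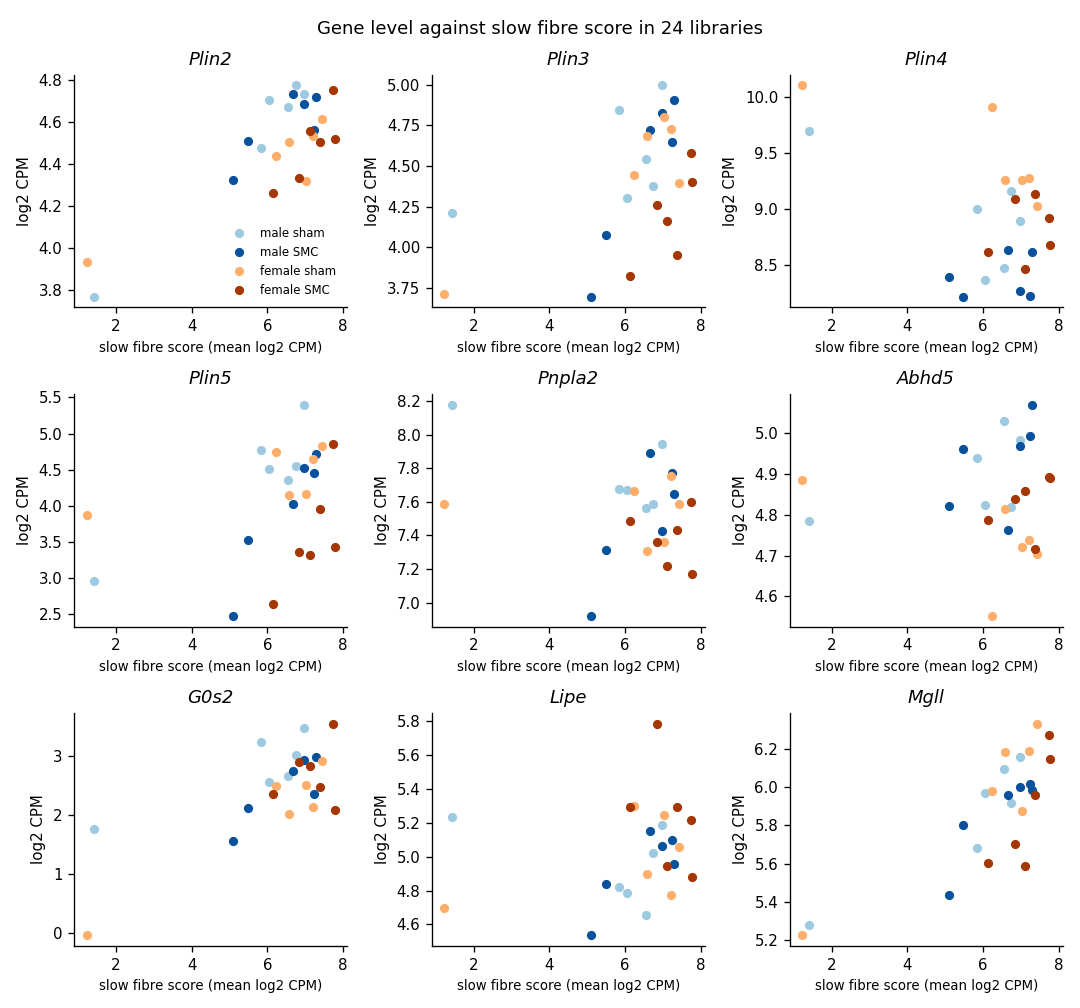
Log2 CPM of each gene against the slow fibre score, the mean log2 CPM of 10 slow fibre genes, with 1 point for each of the 24 libraries coloured by group. Male sham mouse 4 and female sham mouse 7 sit alone at scores of 1.42 and 1.22, low for Plin2 and Mgll and high for Plin4, and the other 22 libraries lie between 5.09 and 7.78.

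Genes whose level varied most like each member, with the group means removed, differed between the perilipins. These are Pearson correlations over 24 libraries that share depth and the same 2 extreme mice, and are given without a test. For Plin4 the 5 highest were Mocs1 (r = 0.888), Glul (0.861), Galnt15 (0.860), Tacc2 (0.849) and Foxo3 (0.845), which lay between 0.727 and 0.815 in the 22 libraries without the 2 extreme mice. Plin5 was most like Slc25a20, the mitochondrial carnitine-acylcarnitine carrier (r = 0.937, and 0.927 in 22 libraries). Lipe was most like Fabp4, the fatty acid binding protein of adipocytes and endothelium (0.848 and 0.856). Plin2 was most like Adamtsl5 (0.956), Mgll like Zdhhc23 (0.934), G0s2 like Chrna2 (0.886), Plin3 like H19 (0.857), Abhd5 like Lgr4 (0.796) and Pnpla2 like Trappc12 (0.730). Among the members, Plin2 with Mgll (0.868) and Plin2 with Plin5 (0.776) were the closest pairs over 24 libraries, while over the 22 without the extreme mice Plin2 with Mgll (0.802) and Plin5 with G0s2 (0.789) were. Plin4 with Plin5 had r = -0.161 in 24 and 0.274 in 22 libraries.

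Between the sexes, 1 of the 9 genes was called, where 4.93% of all tested genes were. Plin4 was lower in males, with a male minus female log2 value of -0.48 ± 0.14 averaged over sham and SMC mice (0.72-fold, FDR = 0.0473). Ranges of male and female Plin4 overlapped both in sham mice, at 329 to 828 and 519 to 1097 CPM, and in SMC mice, at 297 to 396 and 354 to 562 CPM. The call was lost in 15 of the 24 fits that left out 1 mouse (male sham 1, 2, 3 and 6, female sham 7 and 8, male SMC 13, 14, 15, 16 and 18, female SMC 20, 21, 22 and 24), and values over all 24 fits ran from -0.57 to -0.41. It was also lost without a filter on low counts (FDR = 0.0714) and in the sham mice alone, at -0.53 with an FDR of 0.182. Abhd5 was at 0.13 ± 0.045 (FDR = 0.0989), Pnpla2 at 0.19 ± 0.095 (FDR = 0.275) and Lipe at -0.18 ± 0.10 (FDR = 0.335). Plin2, Plin3, Plin5, G0s2 and Mgll were at 0.13, 0.20, 0.25, 0.20 and -0.076, with FDR from 0.460 to 0.777. The median of the 9 was 0.13, beside -0.0037 over all tested genes.

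Adipocyte genes had lower estimates in males, most of them not called, though 9 of the 12 tested had an unadjusted p under 0.05. Over all tested genes that count was 3164 of 16408. Of 13 adipocyte genes 12 were tested, 1 was called lower in males where 4.93% of all tested genes were called (Retn, the adipokine resistin, at -1.76, FDR = 0.0281), and 10 of 12 were below 0 with a median of -0.95, beside -0.0037 over all tested genes. The Retn call was lost without female sham 8, female SMC 20 or female SMC 23 (FDR up to 0.0647). It held in 4 of 7 other settings. With the adipocyte score added to the model, Retn was at -0.34 (FDR = 0.499). That score includes Retn itself, so this setting cannot serve as a test of Retn. Adipoq, the adipocyte hormone adiponectin, ranged over the groups from 0.314 to 7.99 CPM in sham males and 0.812 to 4.80 in SMC males, and from 1.94 to 7.86 and 1.01 to 16.2 CPM in sham and SMC females, and Plin1, the adipocyte perilipin, was at 0.733 CPM or more in every library. The summed level of the 13 genes was 199 to 331 CPM in sham males and 194 to 222 in SMC males, and 195 to 279 and 197 to 428 CPM in sham and SMC females. Adipor2 and Fabp4 made up most of this sum, averaging 112 and 74.0 CPM over all libraries. Cfd followed at 20.5 CPM, with Plin1 at 8.27 and Adipoq at 4.24. Adrb3 was at 0 in 2 libraries and Ucp1, the brown fat uncoupling protein, in 23 of 24. With the mean log2 CPM of the tested adipocyte genes as a covariate, Plin4 was at -0.33 between the sexes (FDR = 0.272), while its SMC value averaged over both sexes was -0.65, as in the fit without that covariate. On the adipocyte score 0 of 9 members had a called slope beside 1.74% of all genes, with Lipe at 0.16 ± 0.056 (FDR = 0.124) and Plin4 at 0.17 ± 0.084 (FDR = 0.286). At an unadjusted p under 0.05 the count was 5 of 9, against 2841 of the 16408 genes. DESeq2 called 2 of 9 members and 734 genes in all, and limma 1 member and 385 genes. Without male sham mouse 4 the slope of Plin4 on the adipocyte score was 0.082.

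Other genes of the pathway gave few calls for SMC averaged over both sexes. Of 16 tested triglyceride synthesis genes, 1 was called, Gpat3, a first-step acyltransferase, at -0.49 ± 0.13 (FDR = 0.0491), where 2.36% of all tested genes were called. The Gpat3 call was lost in 18 of 24 fits that left out 1 mouse (FDR up to 0.0867), all but those without male sham 3 or 6, female sham 7 or 9, male SMC 16 or female SMC 22, and it held in 5 of 7 other settings. Of 12 tested other lipases, 1 was called, Pnpla8, a calcium-independent phospholipase, at -0.30 ± 0.069 (FDR = 0.0239). None of 16 droplet assembly genes, 19 genes of the hormone signal and 14 genes of fatty acid transport was called by edgeR. At an unadjusted p under 0.05 these lists held 1, 5 and 1 genes, against 2879 of the 16408 genes. By the same measure the triglyceride synthesis list held 7 of 16 and the other lipases 1 of 12. In males and females alone, triglyceride synthesis held 2 and 6 of 16, against 1805 and 2049 of the 16408 genes. Medians of these 5 lists were -0.14, -0.017, -0.065, 0.057 and -0.090 beside -0.0089 over all tested genes.

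Also examined were 16 tested lipid genes that respond to peroxisome proliferator-activated receptors (PPAR). In the mean of both sexes 3 were called lower with SMC and 0 higher, where 2.36% of all tested genes were called. At an unadjusted p under 0.05 there were 4 of 16 in the mean, 1 in males and 8 in females. Over all 16408 genes these counts were 2879, 1805 and 2049. Pdk4, the kinase that shuts down pyruvate dehydrogenase, fell by 0.82 ± 0.18 on the log2 scale (FDR = 0.0166), from a median of 1735 CPM in male sham to 1254 in male SMC and from 1930 in female sham to 913 in female SMC mice. Ucp3, the uncoupling protein of muscle mitochondria, was at -0.74 ± 0.18 (FDR = 0.0261) and Acot2, a mitochondrial acyl-CoA thioesterase, at -0.70 ± 0.16 (FDR = 0.0242). With limma, Ucp3 was at -0.50 and not called (FDR = 0.0592). In males alone none of the 3 was called. Pdk4 was at -0.51 ± 0.25 (FDR = 0.456), Ucp3 at -0.35 ± 0.25 (FDR = 0.655) and Acot2 at -0.73 ± 0.23 (FDR = 0.235). For Ucp3 the male response minus the female response was 0.78 ± 0.35 (unadjusted p = 0.0356, FDR = 0.946). In females alone, Pdk4 and Ucp3 were at -1.12 and -1.13 (FDR = 0.0496 for each), calls that were lost in 20 and 21 of 24 fits that left out 1 mouse (FDR up to 0.129 and 0.115). Both held without male sham 4, female sham 9 or female sham 10, and Pdk4 also without female SMC 24. Angptl4, the lipoprotein lipase inhibitor, was at -0.46 ± 0.19 (FDR = 0.198). The list's median was -0.10. Plin1, Cidec, Dgat1, Dgat2, Hilpda and Lpl, the nearest relatives and partners in droplet storage and uptake, were not called, with FDR from 0.645 to 0.998, and neither were Adipoq (0.764) or Myh7 (0.464). Median levels of these in male sham mice were 3.996 CPM for Plin1, 3.39 for Cidec, 6.01 for Dgat1, 40.6 for Dgat2, 0.872 for Hilpda and 564 for Lpl.

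Sex calls in the same lists were 3 of 12 other lipases, 2 of 19 hormone signal genes and 1 of 14 transport genes, where 4.93% of all tested genes were called. Ces1d, a carboxylesterase with triglyceride hydrolase activity, and Pnpla3 were lower in males, at -0.996 ± 0.16 and -1.64 ± 0.30 (FDR = 0.000318 and 0.00141). Pnpla3 averaged 1.39 CPM in male and 7.85 in female sham mice, and 1.86 and 3.17 CPM in SMC mice. Its male response to SMC minus the female response was 1.73 ± 0.60 (unadjusted p = 0.00806, FDR = 0.926). Abhd12, a lysophospholipid lipase, was higher in males by 0.17 ± 0.035 (FDR = 0.00464). Prkacb, a catalytic subunit of protein kinase A, was higher by 0.29 ± 0.066 (FDR = 0.0106), the adenylate cyclase Adcy9 by 0.29 ± 0.073 (FDR = 0.0212) and the acyl-CoA synthetase Acsl3 by 0.71 ± 0.10 (FDR = 4.78e-05). No gene of droplet assembly, triglyceride synthesis or the PPAR list was called between the sexes by edgeR, with 6, 2 and 4 of 16 each at an unadjusted p under 0.05, against 3164 of the 16408 genes. Among the calls, Ces1d and Acsl3 held in all 8 settings other than leaving out 1 mouse, Pnpla3, Abhd12 and Prkacb in 7 and Adcy9 in 6 (FDR up to 0.322), and all 6 held with any 1 mouse left out.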

How the data were processed

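Raw counts per gene were deposited by the authors as 1 table of whole numbers for 24 libraries. Libraries were made from total RNA by a directional kit with rRNA depletion. Per the submitters' processing notes, cutadapt 1.16, STAR 2.7.9a and featureCounts 1.6 were used on GRCm39 (mm39), and DESeq2 1.34.0 is named. The annotation release and strand setting are not given in the sources used here. Of annotated exon bases, 17 of Plin4, 918 of Lipe, 950 of Abhd5 and 167 of Mgll are shared with a gene on the opposite strand, so these reads could be split if strand was not used.

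Counts were tested with edgeR 4.0.16 in R 4.3.3 (filterByExpr, 16408 genes, TMM factors, 1 model of 4 group means, glmQLFit and glmQLFTest, two-sided, Benjamini-Hochberg over all tested genes, FDR under 0.05). Counts without a gene symbol made up 0.361% and stayed in the fit. CPM used TMM-scaled library sizes, and log2 CPM a prior count of 2. The SE of a log2 fold change is its size divided by the square root of F. Gene lengths and positions came from GENCODE M21 (GRCm38), matched by gene ID, and promoter windows from RefSeq (GRCm38.p6), found for all 9 members by symbol. Scripts were tested on simulated counts. Each p-value sets a difference or slope against the spread between libraries within groups, with each library taken as a mouse. Alternatives were DESeq2 1.42.0, limma 3.58.1 with library weights, other filters, other sets of libraries, and slow fibre or adipocyte scores as covariates. The members and gene lists were chosen with earlier results of these data known. Named were all 9 members, listed genes with an FDR under 0.05 in any of 5 contrasts, 8 near relatives, Adipoq and Myh7, and the genes most alike in pattern (5 for Plin4, 1 for each other member).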

Additional observations from a re-analysis of the deposited data

Results flagged for a closer look

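Over the 9 genes and the slow fibre and adipocyte scores in 4 groups, 44 sets of 6 mice were examined for a single mouse far from the others, and 6 stood out. Chance alone gives about 1 in 20 sets. On the log2 CPM scale, male sham mouse 4 was at 3.78 for Plin2, with the other 5 mice at 4.48 to 4.78. Female sham mouse 7 was at 3.72 for Plin3, with the others at 4.40 to 4.80. The same mouse was at 0.066 for G0s2, with the others at 2.05 to 2.94. Male SMC mouse 14 was at 5.44 for Mgll, with the others at 5.81 to 6.02. The slow fibre score was 1.42 in male sham mouse 4, against 5.84 to 6.97 in its group, and 1.22 in female sham mouse 7, against 6.23 to 7.44. None of the 8 tested genes was called for a response to SMC that differed between the sexes.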

How the results depend on the processing

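No member count for SMC within a sex, or for the difference between the sexes, moved from 0 under any alternative. Averaged over both sexes it was 1 with the slow fibre covariate. The count between the sexes was 0 with no filter, with the adipocyte covariate and in sham mice only, 2 with limma, without both low slow fibre libraries and with the slow fibre covariate, and 0 to 1 when 1 mouse was left out. Slopes on the slow fibre score gave 4 to 6 called members when 1 mouse was left out. In those fits 2183 to 4107 genes were called in all. Slopes on the adipocyte score gave 2 with DESeq2, 1 with limma and 0 to 2 when 1 mouse was left out. Genes called in all were 734 with DESeq2, 385 with limma and 62 to 701 with 1 mouse left out.

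Sign changes were among values that were not called. In males, Plin2 was -0.0047 with limma, -0.089 without both low slow fibre libraries and -0.053 with the slow fibre covariate. Lipe was 0.074 with limma, 0.039 without both libraries and 0.021 with the adipocyte covariate. Mgll was -0.00022 with DESeq2, -0.010 with no filter, -0.0048 in males only, -0.10 without both libraries, -0.13 with the slow fibre and -0.010 with the adipocyte covariate. With 1 mouse left out, male values ran from -0.089 to 0.085 for Plin2, -0.13 to 0.088 for Plin3, -0.066 to 0.059 for Lipe, -0.0039 to 0.060 for Abhd5 and -0.10 to 0.076 for Mgll. In females Plin2 was -0.068 with the slow fibre covariate. Between the sexes, the adipocyte covariate gave Plin2 -0.045, Plin5 -0.090 and G0s2 -0.026, and the slow fibre covariate gave Mgll 0.019. The slow fibre slope of Pnpla2 was 0.014 with limma and 0.17 without both libraries. With 1 mouse left out it ran from -0.035 to 0.033, that of Lipe from -0.029 to 0.066 and that of Abhd5 from -0.0088 to 0.040. The cause of these was not tested.

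Genes called among all tested ran from 0 to 133 in males and 14 to 268 in females, 189 to 778 in the mean of both and 324 to 1527 between the sexes, over the alternatives other than leaving out 1 mouse, and 0 to 78, 0 to 147, 236 to 501 and 618 to 1086 with 1 mouse left out. In each group G0s2 had the lowest median CPM of the 9 genes, so its values rest on the fewest counts.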
